A study of Mus musculus with 6 samples.

Results

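Chaperone genes were examined in NIH/3T3 cells, an established mouse embryonic fibroblast line, after knockdown of Aldoa, which encodes the glycolytic enzyme aldolase A. The members were a list of 44 gene symbols for chaperones, their co-chaperones and the transcription factors that drive them, and 42 of the 44 were found by symbol among the 18001 genes of the expression table. Hspa1a, which encodes one of a pair of almost identical inducible HSP70 proteins, and Stub1, which encodes a ubiquitin ligase that binds HSP70 and HSP90, had no row there. The list is headed as cytosolic, but Hspd1, Hspe1, Hspa9 and Trap1 encode mitochondrial chaperones, and these were kept as a class of their own. Poly(A) RNA was compared between 3 libraries of cells transfected with Aldoa-targeting siRNAs (siAldoa) and 3 libraries of cells transfected with non-targeting siRNAs (siCtrl), each harvested 48 h after transfection. Both groups carried siRNA and grew in the same medium, and no library of untransfected cells was analysed here. A pool of siRNAs was used against Aldoa, so the members of the pool cannot be told apart. The replicates are described as biological in the study's text, and the p-values below rest on the spread between these libraries. With limma that spread is moderated towards a trend over all genes, so SEs, intervals and p-values rest in part on other genes.

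Aldoa itself was at 522, 536 and 545 CPM (reads per gene scaled to an effective library size) in siCtrl and at 62.9, 69.2 and 72.0 CPM in siAldoa, 12.7% of the control mean. The libraries held between 3692341 and 3771129 reads in genes, so 3 reads corresponded to 0.79 to 0.82 CPM. Replicate 3 stood apart from the others in both groups. Between replicates 1 and 2 the chi-square per degree of freedom was 1.12 in siCtrl and 1.11 in siAldoa, against 1.97 to 3.03 for pairs with replicate 3. Fibroblast markers were abundant, with 11 of 12 in the table, although Postn had no row. Their summed level was 17461 to 18011 CPM in siCtrl and 15025 to 15733 CPM in siAldoa. Singly they were split, with 5 lower (Col1a1, Col1a2, Col5a1, Vim and Sparc) and 4 higher (Pdgfra, Pdgfrb, Thy1 and Fn1). Of all genes 10.0% were lower and 10.4% higher. Summed markers of epithelial cells lay at 18.6 to 19.7 CPM in siCtrl and 7.86 to 14.2 CPM in siAldoa, those of endothelial cells at 7.94 to 9.0 and 4.01 to 7.83 CPM, and those of blood cells at 18.9 to 26.6 and 34.5 to 35.9 CPM. Of the 7 measured in the last list 2 were higher, Csf1r and Cd14, against 10.4% of all genes. The list was mixed, since 4 of the 7 lay below 0 and the median log2 fold change was −0.06. For Csf1r DESeq2 gave no adjusted p. The call of Cd14 was lost without siCtrl replicate 2 (0.47, adjusted p = 0.069), siAldoa replicate 2 (0.55, adjusted p = 0.069) or siAldoa replicate 3 (0.53, adjusted p = 0.079). Of the 4 measured epithelial markers 2 were lower, Cdh1 and Krt8, against 10.0% of all genes. All 4 lay below 0, with a median log2 fold change of −0.80. DESeq2 gave neither of the 2 an adjusted p, and the Krt8 call was lost with edgeR (adjusted p = 0.11). Both calls were lost in some fits that left out a library. Of the 4 measured endothelial markers 0 passed. Epcam, Krt5, Kdr and Tyrobp had no row. The part of these shifts in the chaperone results was not tested.

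Chaperones bind proteins that are not yet folded or have lost their fold. HSP70 proteins bind short exposed stretches with the help of J-domain proteins, also named HSP40, and release them when exchange factors such as HSP110 replace the bound nucleotide. The cytosolic chaperonin, a double ring also named TRiC or CCT, encloses actin, tubulin and other clients that prefoldin can hand to it, and HSP90 with its co-chaperones completes the folding of kinases and steroid hormone receptors. Heat shock factor HSF1 is the main activator of many of these genes under stress and binds heat shock elements, which are built from alternating GAA and TTC units.

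In siAldoa most abundant chaperone genes lay slightly below siCtrl, while 4 members, Hspa1b, Hsph1, Dnajb6 and Hspa8, rose. With limma and Benjamini-Hochberg adjustment over all 18001 genes, 19 of the 42 members were lower, against 10.0% of all genes, and 4 were higher, against 10.4% of all genes. The other 19 members did not pass. CPM are shares of the reads, so fewer cells that express a gene and less of its RNA per cell cannot be told apart. In the chaperonin, prefoldin, HSP90, small heat shock, mitochondrial and co-chaperone classes 0 members were higher with limma, edgeR or DESeq2, and 0 were higher at an unadjusted p under 0.05. The called members on the lower side changed little, since the log2 fold change was −0.30 at the most, for Hsp90aa1. In 23 members every siAldoa library was below every siCtrl library, which was so for 17.1% of all genes, and in 5 every siAldoa library was above, which was so for 16.7%. The median log2 fold change was −0.12 over the members and −0.0023 over all genes, and 34 of the 42 members lay below 0.

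**Figure D1:**
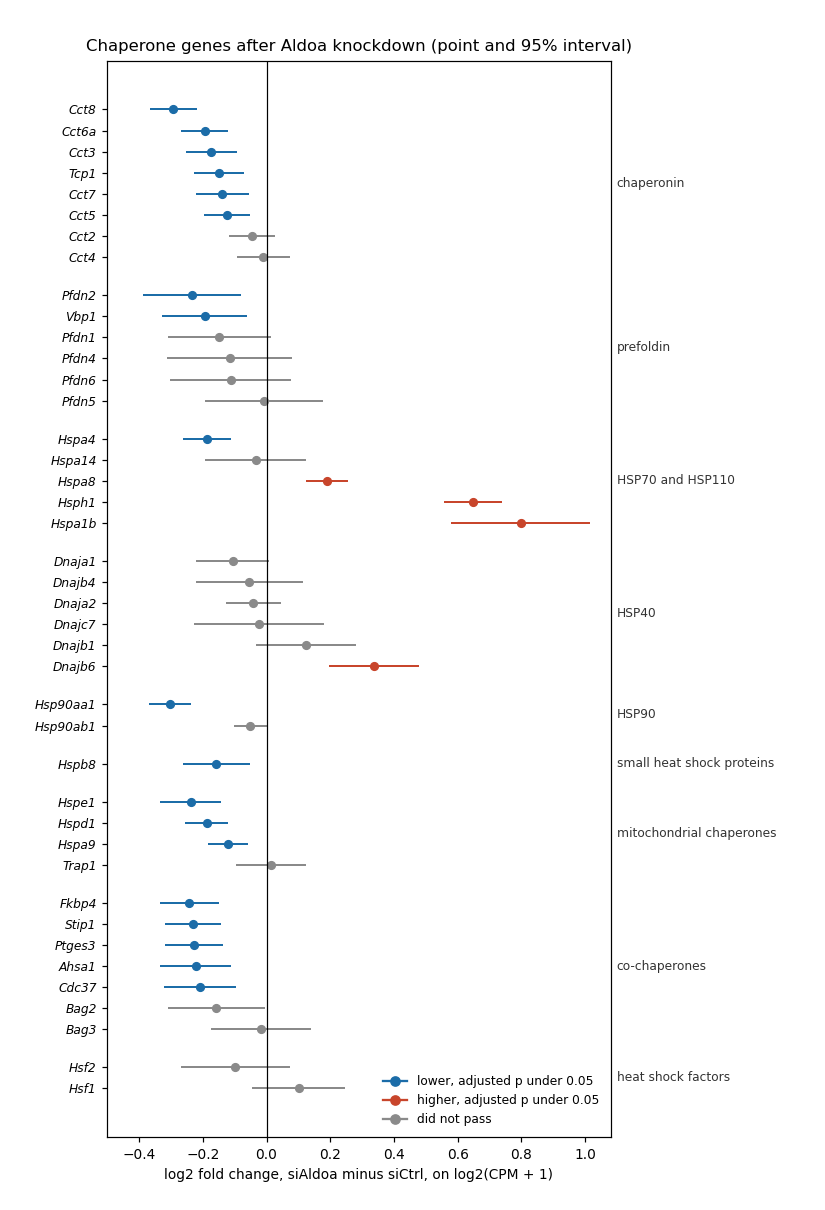
Log2 fold change of siAldoa against siCtrl on log2(CPM + 1) for the chaperone genes other than Hspb1, one row per gene and grouped by class. Points are the estimates, lines the 95% intervals and colours the call, and 19 genes are lower, 4 higher and the rest did not pass. Hspb1 held 0 to 2 reads per library and is not drawn.

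The share of genes called depended on their level. Of the 21 members at or above the chaperone median of 194 CPM in siCtrl, 15 were lower and 2 higher, with a median log2 fold change of −0.17. All 1059 genes at that level or above had a median of −0.08, with 41.6% of them lower and 16.8% higher. Between 200 and 1000 CPM, 13 of 17 members were lower against 42.2% of 932 genes. From 50 to 200 CPM the count was 4 of 15 members against 21.9% of 3906 genes. Quantile normalization, which forces the same distribution on every library, left 12 members lower and 4 higher with a median of −0.07, and the calls of Tcp1, Cct3, Cct5, Cct7, Hspa9, Hspd1 and Hspb8 were lost. The fit without a mean-variance trend left 2 lower, Cct8 and Hsp90aa1, and 2 higher, Hspa1b and Hsph1. With DESeq2 the calls of Pfdn2, Vbp1 and Hspb8 were lost. Without both libraries of replicate 3, which stood apart, 7 members were lower and 2 higher, against 9 lower without both libraries of replicate 1 and 10 lower without those of replicate 2, each with 2 libraries per group.

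**Figure D2:**
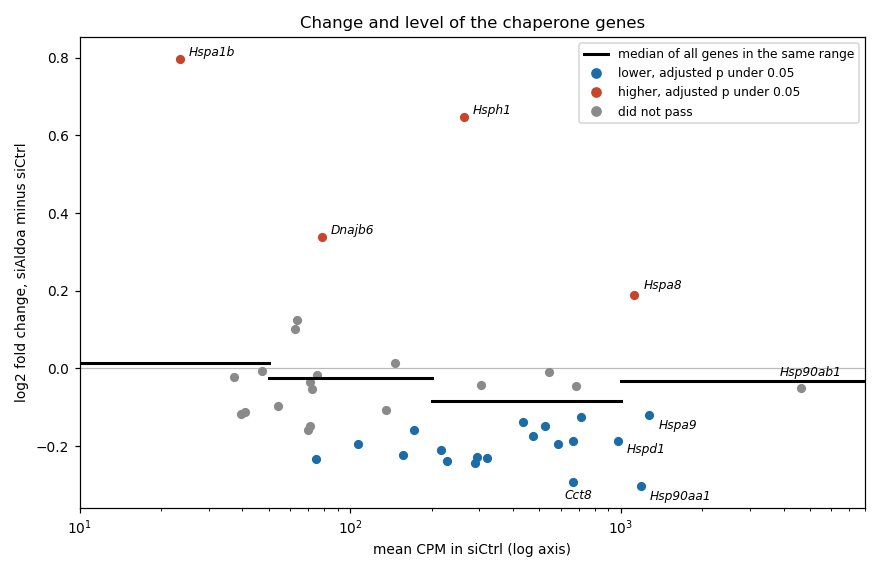
Log2 fold change of siAldoa against siCtrl (y axis) by the mean CPM of siCtrl on a log axis (x axis), one point per chaperone gene and coloured by call. Black lines are the medians of all genes from 10 to 50, 50 to 200, 200 to 1000 and above 1000 CPM, and from 200 to 1000 CPM most members lie below the line at −0.08.

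Heat shock elements are shown first, because the same motif stood near the start of genes that rose and of genes that fell. RefSeq promoters of GRCm38.p6, from 250 bases before to 50 bases after the start, were matched for 35 members. GAANNTTC or TTCNNGAA, a pair of alternating units, was found on either strand for 15 of the 35 members and for 14.5% of 11192 genes. A further alternating unit after another NN was found for 4 members, Hsph1, Dnajb6, Hspd1 and Hspe1, and for 0.563% of genes. Every longer match holds the shorter one. The windows below carry the match in capitals, read 5′ to 3′ on the strand of the gene.
Hsph1, chr5:149636280-149636308, minus: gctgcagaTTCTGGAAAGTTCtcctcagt
Dnajb6, chr5:29735844-29735872, plus: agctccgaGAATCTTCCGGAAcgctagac
Hspe1, chr1:55088053-55088082, plus: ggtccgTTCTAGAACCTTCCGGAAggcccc
Hspa1b, chr17:34959309-34959368, minus: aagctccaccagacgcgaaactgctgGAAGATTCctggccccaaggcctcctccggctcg
Fkbp4, chr6:128438789-128438818, minus: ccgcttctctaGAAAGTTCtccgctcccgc
Cct5, chr15:31601862-31601891, minus: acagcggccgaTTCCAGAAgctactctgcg

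Hsph1 and Dnajb6 were higher in siAldoa, and Hspe1 was lower, although all of them had the longer match. The Hspe1 window is also the Hspd1 window read from the other strand, since these genes are transcribed away from each other, and Hspd1 was lower too. Hspa1b had the shorter match and was higher, whereas Fkbp4 and Cct5 had it and were lower. The Hsph1 match printed lies after the start of the gene, and the other matches printed lie before it. Hsph1 also has a shorter match before its start, which is not printed. The window of Hspa1b lies outside annotated exons, and the same 60 bases stand before Hspa1a, while the other windows lie in an exon of the gene or of a neighbour. Among the 15 members with a match 7 were lower and 3 higher, and among the 20 members without one 10 were lower and 0 higher. Of all genes 10.0% were lower and 10.4% higher, and these shares were not split by the match. Hspa8, which also rose, had no promoter entry and is in neither count, so a link between match and direction was not tested. CCAAT, on either strand, was found for 16 of the 35 members and 43.0% of genes, and CACGTG for 3 members and 11% of genes. Hspa8, Hspa9, Hsp90aa1, Hsp90ab1, Cct4, Pfdn1 and Hsf1 had no entry. A match is a run of letters and says nothing of binding in these cells.

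Of the 8 chaperonin subunits, 6 were lower (Tcp1, Cct3, Cct5, Cct6a, Cct7 and Cct8), with a median log2 fold change of −0.14. All 8 lay between 200 and 1000 CPM in siCtrl, where 42.2% of all genes were lower and the median was −0.08. Cct8, the theta subunit (chr16:87483326-87495873 of GRCm38), fell the most. It was at 669, 674 and 663 CPM in siCtrl and at 541, 540 and 556 CPM in siAldoa. All siAldoa libraries lay far below the siCtrl libraries, a log2 fold change of −0.29 ± 0.03 (moderated SE, n = 3 per group) with limma adjusted p = 7.2e-07. Cct6a, the zeta subunit, was at 585, 591 and 588 CPM and at 510, 518 and 514 CPM. The spread within each group was small beside the gap, and the log2 fold change was −0.19 ± 0.03 (adjusted p = 0.00017). Part of the Cct8 and Cct6a exons is shared with Usp16 and Psph on the other strand, and whether counting used strand is not given in the sources used here.

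Cct3, the gamma subunit, was at 487, 464 and 469 CPM in siCtrl and at 413, 424 and 422 CPM in siAldoa (log2 fold change −0.17 ± 0.04, adjusted p = 0.0013). Tcp1, the alpha subunit, was at 511, 518 and 539 CPM and at 472, 467 and 475 CPM (−0.15 ± 0.04, adjusted p = 0.0040). Neither gene overlapped between the groups. Tcp1 shares exon bases with Acat3 and Mrpl18 on the other strand. For Cct7, the eta subunit, the libraries stood at 429, 445 and 430 CPM and at 411, 385 and 389 CPM (−0.14 ± 0.04, adjusted p = 0.013). Cct5, the epsilon subunit, stood at 722, 696 and 725 CPM and at 651, 647 and 667 CPM (−0.12 ± 0.03, adjusted p = 0.0092). Their calls were less steady than those of the other subunits. The Cct7 call was lost without siCtrl replicate 2 (adjusted p = 0.075), siAldoa replicate 2 (0.081) or siAldoa replicate 3 (0.059), with log2 fold changes of −0.13 to −0.12. The Cct5 call was lost without siCtrl replicate 3 (adjusted p = 0.051) or siAldoa replicate 2 (0.056), with a log2 fold change of −0.11 or −0.12.

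Cct4, the delta subunit, had overlapping groups, with 530, 556 and 546 CPM in siCtrl and 549, 513 and 561 CPM in siAldoa. Its log2 fold change was −0.01, with a 95% interval from −0.09 to 0.07. Cct2, the beta subunit, was at 675, 692 and 686 CPM and at 659, 659 and 671 CPM, so that the groups did not overlap, but the log2 fold change of −0.05 ± 0.03 did not pass (adjusted p = 0.38). Summed over the 8 subunits, the chaperonin took 4608, 4636 and 4647 CPM in siCtrl and 4207, 4153 and 4255 CPM in siAldoa, 90.8% of the control mean. The subunits are used in equal numbers in the ring, yet per kb of annotated exon their mRNA levels in siCtrl ran from 64.1 CPM for Cct7 to 268 CPM for Cct2. That range rests in part on the exon length, which is the union over all annotated transcripts, 6.78 kb for Cct7 and 2.56 kb for Cct2.

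Prefoldin delivers unfolded actin and tubulin to the chaperonin. Of its 6 subunits 2 were lower with limma, with a median log2 fold change of −0.13 and all 6 below 0, and with DESeq2 0 were lower. Their levels lay between 10 and 200 CPM in siCtrl. There 8.1% (10 to 50 CPM) and 21.9% (50 to 200 CPM) of all genes were lower with limma. Vbp1, subunit 3 of the complex, was at 104, 107 and 109 CPM in siCtrl and at 101, 87.1 and 91.9 CPM in siAldoa (−0.19 ± 0.06, adjusted p = 0.031). Pfdn2 was at 81.3, 74.1 and 69.8 CPM and at 64.2, 61.2 and 65.5 CPM (−0.23 ± 0.07, adjusted p = 0.023). Both calls were marginal and were lost in most fits that left out a library. Pfdn2 did not pass without siCtrl replicate 1 (adjusted p = 0.14), siCtrl replicate 2 (0.067), siAldoa replicate 1 (0.069), siAldoa replicate 2 (0.11) or siAldoa replicate 3 (0.054). Vbp1 did not pass with the replicate number as a block (adjusted p = 0.061), or without siCtrl replicate 1 (adjusted p = 0.065), siCtrl replicate 2 (0.096), siCtrl replicate 3 (0.12), siAldoa replicate 2 (0.17) or siAldoa replicate 3 (0.11). Their log2 fold changes without one library stayed between −0.28 and −0.15. Pfdn1, Pfdn4, Pfdn5 and Pfdn6 had log2 fold changes of −0.15, −0.12, −0.01 and −0.11, with groups that overlapped and adjusted p from 0.20 to 0.97.

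Genes around the chaperonin were read from separate lists of partners, tubulin cofactors and clients. Of 7 measured partners 1 passed, on the lower side, where 10.0% of all genes were lower and 10.4% higher. It was Uri1, a prefoldin-like protein, with 81.8 to 83.5 CPM in siCtrl and 54.5 to 60.7 CPM in siAldoa (−0.51 ± 0.07, adjusted p = 6.2e-06). Among 5 tubulin folding cofactors Tbcc (−0.54, adjusted p = 0.012) and Tbca (−0.21, adjusted p = 0.022) were lower with limma, against 10.0% of all genes. With DESeq2 0 were lower (adjusted p = 0.057 and 0.13). The Tbcc call was also lost without siCtrl replicate 1 (adjusted p = 0.096), siAldoa replicate 1 (0.10) or siAldoa replicate 3 (0.070), and that of Tbca without siCtrl replicate 2 (0.093), siCtrl replicate 3 (0.057), siAldoa replicate 2 (0.058) or siAldoa replicate 3 (0.10). Of 12 actins and tubulins 6 were lower and 1 was higher, against 10.0% and 10.4% of all genes. These genes differ in level, and from 200 to 1000 CPM in siCtrl 42.2% of all genes were lower. Tuba1b, an alpha-tubulin, was at 853 to 919 CPM and at 624 to 646 CPM (−0.48 ± 0.03, adjusted p = 4.9e-10), and Tuba1c fell by 0.41 on the log2 scale (adjusted p = 7.2e-08). Tubb2a, a beta-tubulin, was at 79.4 to 88.6 CPM and at 92.3 to 104 CPM (0.22 ± 0.07, adjusted p = 0.019). This call was lost with DESeq2 (adjusted p = 0.094) and without siCtrl replicate 1 (0.10), siCtrl replicate 2 (0.084), siAldoa replicate 2 (0.058) or siAldoa replicate 3 (0.12).

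Of the 4 members that rose, 3 belonged to the HSP70 and HSP110 class. Among the 5 measured there, Hspa1b, Hsph1 and Hspa8 were higher and Hspa4 was lower, against 10.4% and 10.0% of all genes. Hspa1b (chr17:34956436-34959238 of GRCm38, a gene of 1 exon), an inducible HSP70, was at 24.9, 23.5 and 22 CPM in siCtrl and at 40.7, 38.2 and 45.8 CPM in siAldoa. Every siAldoa library was well above every siCtrl library, and the log2 fold change of 0.80 ± 0.10 (adjusted p = 4.0e-06) was the largest of the members. Between 83 and 175 reads per library stood behind these values. The transcripts of Hspa1b and Hspa1a are 99.1% identical over 2200 bases, so the values assigned to Hspa1b may include reads of Hspa1a.

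Hsph1, the HSP110 exchange factor that also keeps aggregates soluble, was far more abundant (chr5:149614287-149636376). It was at 267, 251 and 270 CPM in siCtrl and at 402, 407 and 427 CPM in siAldoa. The groups were separated by many times their spread, with a log2 fold change of 0.65 ± 0.04 (adjusted p = 8.3e-11). Hspa8, the constitutive HSP70 (chr9:40800984-40810087), was at 1135, 1116 and 1118 CPM and at 1235, 1315 and 1296 CPM (0.19 ± 0.03, adjusted p = 7.3e-05). In absolute terms it gained the most, since its mean rose from 1123 to 1282 CPM. Hspa4, another exchange factor of the HSP110 type, moved the other way, with 689, 651 and 653 CPM in siCtrl and 580, 590 and 581 CPM in siAldoa (−0.19 ± 0.03, adjusted p = 0.00036). Hspa14, an HSP70 bound to ribosomes, had overlapping groups (−0.03, adjusted p = 0.82). Together the class took 2115 to 2190 CPM in siCtrl and 2322 to 2424 CPM in siAldoa.

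**Figure D3:**
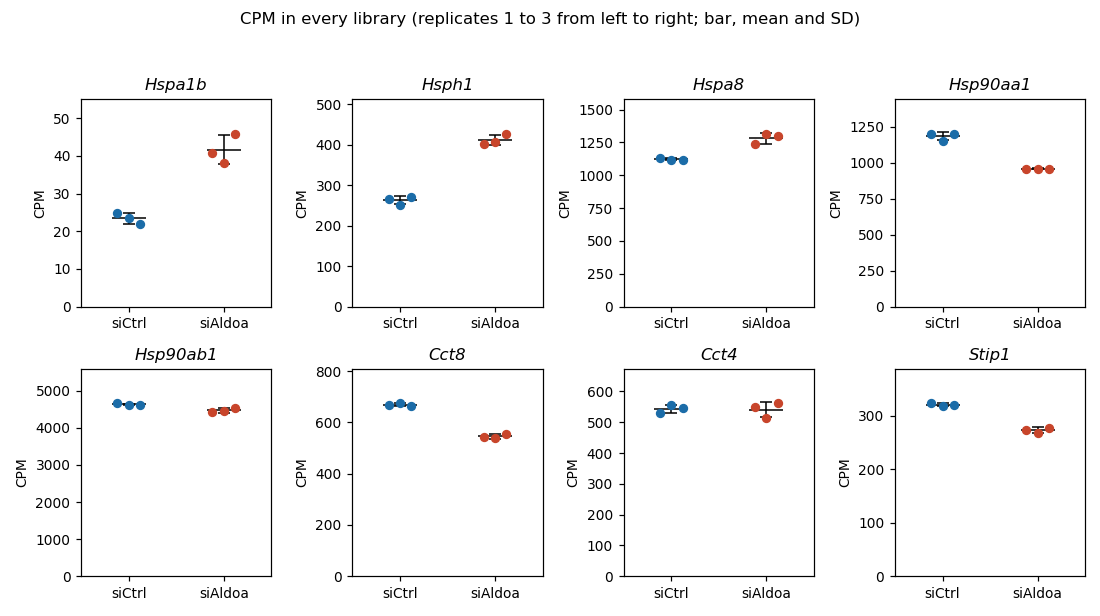
CPM (y axis, from 0) of 8 chaperone genes in the 3 siCtrl and the 3 siAldoa libraries, with replicates 1 to 3 from left to right and bars for mean and SD. Hspa1b, Hsph1 and Hspa8 are higher in every siAldoa library, Hsp90aa1, Cct8 and Stip1 are lower, Hsp90ab1 is at 96.5% of control and Cct4 overlaps.

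The ratio of Hspa1b to Hspa8 was −5.45, −5.51 and −5.61 on the log2 scale in siCtrl and −4.89, −5.07 and −4.79 in siAldoa. The difference of 0.61 did not overlap between the groups, and the exact permutation test gave p = 0.1, the smallest that 3 against 3 libraries allow. A separate list of other HSP70 genes and exchange factors held 11 measured genes. Of these 4 were higher and 1 lower, against 10.4% and 10.0% of all genes. Hspa4l, the third HSP110 type gene (chr3:40744495-40796103), was at 275, 280 and 289 CPM in siCtrl and at 687, 731 and 662 CPM in siAldoa. This log2 fold change of 1.3 ± 0.04 (adjusted p = 1.7e-16) was larger than that of any member. St13, which bridges HSP70 and HSP90, followed at 353 to 363 CPM and 408 to 430 CPM (0.22 ± 0.04, adjusted p = 0.00014), and Hspbp1, an exchange factor, was lower (−0.28, adjusted p = 0.036). The groups of Hspbp1 overlapped, and its call was lost with DESeq2 (adjusted p = 0.15) and without siCtrl replicate 1 (0.18), siCtrl replicate 2 (0.14), siAldoa replicate 1 (0.15) or siAldoa replicate 2 (0.18).

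Among the 6 J-domain (HSP40) members only Dnajb6 passed. Dnajb6, a suppressor of aggregation (chr5:29735688-29818134), was at 82.4, 73.3 and 79.6 CPM in siCtrl and at 96.9, 94.9 and 107 CPM in siAldoa (0.34 ± 0.07, adjusted p = 0.00065). Dnaja1, a partner of HSP70 in the cytosol, was at 141, 132 and 135 CPM and at 124, 131 and 123.3 CPM (−0.11 ± 0.05, adjusted p = 0.19). Its groups just failed to overlap. Dnaja2, the most abundant of the class per kb, was at 308, 298 and 305 CPM and at 294, 292 and 298 CPM (−0.04, adjusted p = 0.54). The log2 ratio of Dnaja1 to Dnaja2 differed by −0.06 between groups that overlapped (exact permutation p = 0.3). Dnajb1, the J-domain partner that is classically induced by heat, was at 66.8, 60.7 and 63.2 CPM and at 72.9, 71.6 and 63.9 CPM. The groups overlapped, with a log2 fold change of 0.12 and a 95% interval from −0.03 to 0.28. Dnajb4 (−0.05) and Dnajc7 (−0.02), a co-chaperone that binds both HSP70 and HSP90, overlapped as well. As a class, HSP40 took 675 to 713 CPM in siCtrl and 692 to 699 CPM in siAldoa, so its share of the reads differed by less than the spread in siCtrl. Of 18 other J-domain genes 4 were higher and 1 was lower, against 10.4% and 10.0% of all genes. Dnajc18 (0.41, adjusted p = 0.0059) and Dnajc13 (0.35, adjusted p = 0.00043) led the higher ones, and Dnajc8 was lower (−0.26, adjusted p = 0.0068). The Dnajc18 call was lost without siCtrl replicate 2 (adjusted p = 0.057) or siAldoa replicate 3 (0.062), and that of Dnajc8 without siCtrl replicate 1 (0.060) or siAldoa replicate 3 (0.059).

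The HSP90 pair was unequal. Hsp90aa1, the inducible form (chr12:110690605-110702728), was at 1199, 1154 and 1201 CPM in siCtrl and at 960, 961 and 958 CPM in siAldoa. The siAldoa libraries were almost equal and far below the lowest siCtrl library, with a log2 fold change of −0.30 ± 0.03 (adjusted p = 8.7e-08). Hsp90ab1, the constitutive form and the most abundant chaperone mRNA here, was at 4662, 4614 and 4628 CPM and at 4419, 4453 and 4549 CPM. These groups did not overlap either, but the log2 fold change of −0.05 ± 0.02 did not pass (adjusted p = 0.14). It passed with edgeR's quasi-likelihood test on reads (adjusted p = 0.048) and in no other alternative. Under quantile normalization, which forces the same distribution on every library, its difference vanished by construction, so that fit cannot test it. The log2 ratio of Hsp90aa1 to Hsp90ab1 was −1.96, −2.0 and −1.95 in siCtrl and −2.2, −2.21 and −2.25 in siAldoa, a difference of −0.25 (exact permutation p = 0.1, adjusted over 5 ratios 0.125).

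Of the 7 measured co-chaperone members 5 were lower, all of which act with HSP90, and the class median of −0.22 on the log2 scale was the lowest of the classes. Their levels lay between 50 and 1000 CPM in siCtrl. There 21.9% (50 to 200 CPM) and 42.2% (200 to 1000 CPM) of all genes were lower. Stip1, which passes clients from HSP70 to HSP90, was at 323, 318 and 320 CPM in siCtrl and at 274, 267 and 278 CPM in siAldoa (−0.23 ± 0.04, adjusted p = 0.00017). Fkbp4, a prolyl isomerase of steroid receptor complexes, was at 293, 288 and 285 CPM and at 245, 234 and 252 CPM (−0.24 ± 0.04, adjusted p = 0.00020). Both stood far outside the spread of the libraries. Ptges3, which binds the closed form of HSP90, was at 292, 287 and 301 CPM and at 257, 248 and 246 CPM (−0.23 ± 0.04, adjusted p = 0.00031). Ahsa1, which stimulates the ATPase of HSP90, was at 158, 155 and 156 CPM and at 140, 131 and 130 CPM (−0.22 ± 0.05, adjusted p = 0.0028). Neither gene overlapped between the groups, and reads of Ptges3 are shared with copies described further on.

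Cdc37, which recruits kinases to HSP90, was at 218, 208 and 224 CPM in siCtrl and at 189, 174 and 201 CPM in siAldoa (−0.21 ± 0.05, adjusted p = 0.0057). Its call was lost without siCtrl replicate 3 (−0.19, adjusted p = 0.062) or siAldoa replicate 2 (−0.16, adjusted p = 0.073). The remaining members of this class bind HSP70 instead. Bag2, an exchange factor, was at 70.4, 67.3 and 71.7 CPM and at 61.5, 59.1 and 67.0 CPM (−0.16 ± 0.07, adjusted p = 0.14), and Bag3, which links HSP70 to small heat shock proteins and is a sensitive HSF1 target, had a log2 fold change of −0.02 (adjusted p = 0.91). Among 18 other HSP90 co-chaperones 3 were lower and 1 was higher, against 10.0% and 10.4% of all genes. Fkbp5, a prolyl isomerase induced by glucocorticoids, was at 79.9 to 84.6 CPM and at 53.2 to 55.6 CPM (−0.60 ± 0.07, adjusted p = 6.9e-07), Nudc was lower by −0.29 (adjusted p = 0.0017) and Cdc37l1 was higher by 0.21 (adjusted p = 0.012). The Cdc37l1 call was lost with DESeq2 (adjusted p = 0.078) and without siCtrl replicate 3 (0.051) or siAldoa replicate 3 (0.065).

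Small heat shock proteins hold unfolded proteins without using ATP. Hspb8 was at 178, 169 and 168 CPM in siCtrl and at 155, 151 and 156 CPM in siAldoa (−0.16 ± 0.05, adjusted p = 0.025). The groups did not overlap, but the call was lost without siCtrl replicate 1 (adjusted p = 0.11), siCtrl replicate 2 (0.051), siAldoa replicate 1 (0.062) or siAldoa replicate 2 (0.097), with log2 fold changes of −0.17 to −0.13. Hspb1, the best known member, held 0 to 2 reads per library, at or under the floor of 3 reads in both groups, so no fold is given. Among 5 measured others Cryab, also an HSF1 target, rose from 78.8 to 87.6 CPM to 120 to 142 CPM (0.68 ± 0.07, adjusted p = 9.4e-08). Hspb2 overlaps the annotated span of Cryab on the other strand. It passed with 0 to 1.1 CPM in siCtrl and 1.89 to 2.14 CPM in siAldoa (limma adjusted p = 0.0032). DESeq2 gave it no adjusted p, and its siCtrl values reach below the floor of 3 reads. Whether reads of Cryab were counted for Hspb2 was not tested.

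The mitochondrial members fell except for Trap1. Hspd1, the mitochondrial chaperonin (chr1:55077835-55088243), was at 967, 974 and 981 CPM in siCtrl and at 865, 837 and 865 CPM in siAldoa (−0.19 ± 0.03, adjusted p = 8.4e-05). Hspe1, the lid of that chaperonin (chr1:55088132-55091307), was at 225, 227 and 231 CPM and at 196, 192 and 191 CPM (−0.24 ± 0.04, adjusted p = 0.00035). They share the window with the longer heat shock match shown above and 112 exon bases on opposite strands. Their log2 ratio was 2.10, 2.09 and 2.08 in siCtrl and 2.14, 2.12 and 2.17 in siAldoa, a difference of 0.05 (exact permutation p = 0.1, the smallest possible). Hspa9, the mitochondrial HSP70, was at 1276, 1270 and 1280 CPM and at 1157, 1177 and 1186 CPM (−0.12 ± 0.03, adjusted p = 0.0037). Trap1, the mitochondrial HSP90, was at 149, 144 and 148 CPM and at 144, 145 and 155 CPM, with overlapping groups and a 95% interval from −0.09 to 0.12. Of 8 other mitochondrial folding and protease genes, among them Dnaja3, Grpel1 and Lonp1, 0 passed with limma, edgeR or DESeq2, 1 was under 0.05 before adjustment, and the median log2 fold change was −0.03.

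**Figure D4:**
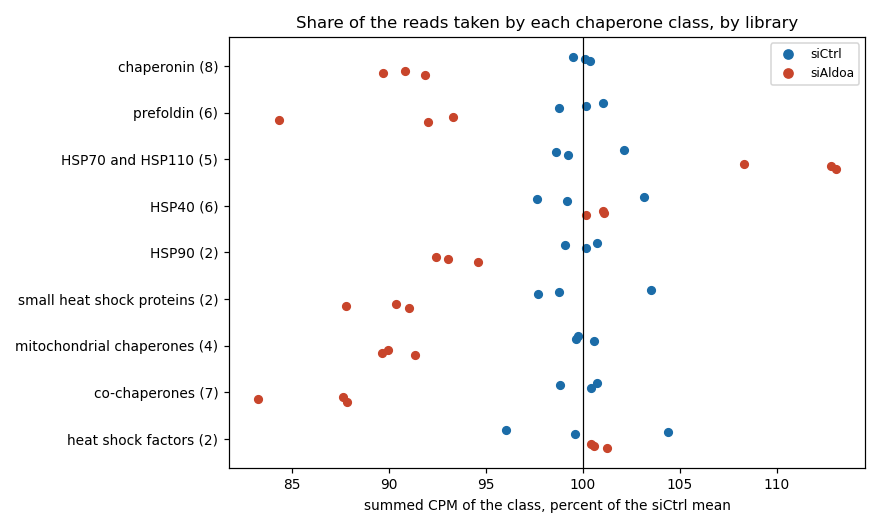
Summed CPM of each chaperone class in each library, as percent of the siCtrl mean of that class (x axis), with the number of measured genes in brackets. In siAldoa the chaperonin sum is 90.8% and the co-chaperone sum 86.3% of control, while HSP70 and HSP110 stand at 111% and HSP40 at 101%.

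The mRNAs of both heat shock factors lay below the chaperone median of 194 CPM. Hsf1 was at 61.1, 62.1 and 64.3 CPM in siCtrl and at 65.3, 68.2 and 67.8 CPM in siAldoa, so that the groups did not overlap, but the log2 fold change of 0.10 ± 0.07 did not pass (adjusted p = 0.35). Hsf2, a related factor active in development, was at 50.9, 59.6 and 51.9 CPM and at 51.8, 49.2 and 50.3 CPM (−0.10 ± 0.08, adjusted p = 0.46). The log2 ratio of Hsf1 to Hsf2 was 0.20 higher in siAldoa (exact permutation p = 0.1). The mRNA level of Hsf1 does not report its activity, which is set on the protein.

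The members known as HSF1-driven stood on both sides. Of 15 such members 7 were lower (Hsp90aa1, Hspd1, Hspe1, Stip1, Ahsa1, Fkbp4 and Hspb8), 3 were higher (Hspa1b, Hspa8 and Hsph1) and 5 did not pass, with a median log2 fold change of −0.11. Summed, they took 5023 to 5133 CPM in siCtrl and 4859 to 4922 CPM in siAldoa. Genes known for strong induction by heat were split, with Hspa1b and Hsph1 higher, Hsp90aa1 lower, and Dnajb1 and Bag3 not passing. A list of 10 other HSF1 targets had 5 higher and 2 lower, against 10.4% and 10.0% of all genes. Hspa4l and Cryab led it, and both were already counted in lists above. Serpinh1, a collagen chaperone of the endoplasmic reticulum, was at 1580 to 1630 CPM and at 1187 to 1237 CPM (−0.41 ± 0.03, adjusted p = 4.5e-10). Cacybp was lower by −0.27 (adjusted p = 0.00062). The call of Hmox1, 1 of the 5, was lost with DESeq2 (adjusted p = 0.12). It was also lost without siCtrl replicate 1 (0.067), siCtrl replicate 3 (0.082), siAldoa replicate 2 (0.057) or siAldoa replicate 3 (0.088). All 78 other chaperone pathway genes measured had 10 lower and 14 higher, where 10.0% of all genes were lower and 10.4% higher. The 42 members had 19 lower and 4 higher. These counts are not at like levels, since in siCtrl the 42 members summed to 17999 CPM and the 78 genes to 8297 CPM.

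Several members have near-identical processed copies, and reads may have been split between a gene and its copies. Of the 42 members 15 had an annotated copy with at least 90% identity over at least 200 bases, and 9 had such a copy in the table. Hspd1-ps3, for which the reads came to 88.8% of those of Hspd1, was at 851 to 881 CPM in siCtrl and at 746 to 767 CPM in siAldoa (−0.20, adjusted p = 5.3e-05), close to the value of Hspd1 itself. Gm5844, a copy of Hsp90aa1, was lower by −0.29 and Cct3-ps1 by −0.20. Ptges3-ps, which is 100% identical to Ptges3 over 480 bases, was lower by −0.16 (adjusted p = 0.032). Copies of Dnajb6 had log2 fold changes of 0.05 to 0.19, of which 0 passed with limma, edgeR or DESeq2 or were under 0.05 before adjustment, and Gm6210, a copy of Hspa8, was at 0.11 (adjusted p = 0.054). With the copies in the table added to their genes all 23 calls remained, with Dnajb6 at 0.26 and Hspa8 at 0.16. Copies without a row, such as Gm15459 of Hspa8, Gm12346 of Hsp90aa1 and all those of Hspe1, could not be added.

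**Figure D5:**
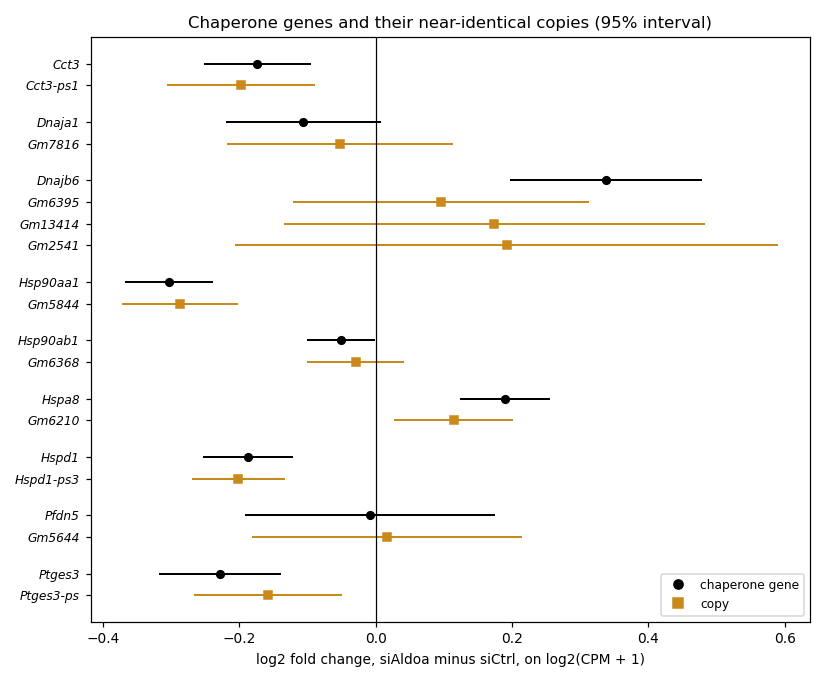
Log2 fold change of siAldoa against siCtrl on log2(CPM + 1), with 95% intervals, for 9 chaperone genes (black circles) and those of their near-identical copies that held at least 10% as many reads (yellow squares). The copies of Cct3, Hsp90aa1, Hspd1 and Ptges3 lie below 0 as the genes do, and those of Dnajb6 lie between 0.10 and 0.19 with intervals that reach 0.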

How the data were processed

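NIH/3T3 cells were compared 48 h after transfection with siAldoa or siCtrl, 3 libraries per group, grouped by the labels. ERCC spike-in RNA went into replicate 1 at lysis and into the others after extraction, and it was not used here. The authors isolated poly(A) RNA, aligned reads with bowtie2 (version 2.2.7) to mm10, subsampled them to equal numbers and deposited CPM of an effective library size. A table of their own log2 fold changes and p-values was deposited too and was not used here. Annotation release, use of strand and handling of multi-mapping reads are not given in the sources used here.

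Members and lists were chosen with earlier results of these data known. Limma (version 3.58.1, R version 4.3.3), with a mean-variance trend, was run on log2(CPM + 1) of all 18001 genes, two-sided, with Benjamini-Hochberg adjustment and a threshold of 0.05. Whole reads were recovered for 100% of the values within 0.001 reads, so edgeR (version 4.0.16, quasi-likelihood test) and DESeq2 (version 1.42.0) were run as alternatives, since the deposited unit is CPM. On these reads edgeR called 1866 genes lower and 1920 higher. The SEs and 95% intervals of fold changes come from the limma fit. It moderates the spread between libraries of each gene towards a trend over all genes, so they rest in part on other genes. Floors, taken as 3 reads, cover counting error only.

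Values in every library were given for members that passed, for ratio pairs and for the leading members of each class, and of each other list the lowest and highest genes that passed were named. The planned ratio of Hspa1a plus Hspa1b to Hspa8 was run as Hspa1b to Hspa8. Ratios were compared with two-sided exact permutation tests. Coordinates are of GENCODE on GRCm38, in which 17932 identifiers matched. Copies were searched with blastn (version 2.17.0). The scripts were tested on simulated data. Alternatives were other scalings, tests, filters and pseudocounts, the replicate block and left-out libraries, and, added after seeing the data, averaging replicates 1 and 2 and adding the copies.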

Additional observations from a re-analysis of the deposited data

How the results depend on the processing

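Of the 23 called members 17 kept their call in every fit that left out one library, and Cct8, Hspa1b, Hsph1 and Hsp90aa1 in every fit run, and no called member turned its direction. Settings that left out a library or both libraries of one number gave 7 to 17 members lower and 2 to 4 higher, and 520 to 1371 genes lower and 494 to 1464 higher over all genes, with fewer libraries in each. Without the mean-variance trend 2 members were lower and 2 higher, and 616 and 824 of all genes. DESeq2 called 1117 genes lower and 1066 higher. Quantile normalization left 12 members lower and moved the class medians to −0.053 (chaperonin), 0.24 (HSP70 and HSP110), −0.13 (HSP90), −0.083 (mitochondrial), −0.17 (co-chaperones) and −0.068 (all members), and it turned the uncalled Cct2 (0.021), Cct4 (0.048) and Dnaja2 (0.0030). The median of the small heat shock proteins, which rests on Hspb1 at 0 to 2 reads, was 0.67 with a pseudocount of 0.1, −0.16 with the filter on low genes, 0.50 with edgeR and 0.57 with DESeq2. That of the HSF1-driven members was −0.13 with the filter and −0.089 with copies added. Averaging replicates 1 and 2 turned Cct4 (0.0025), Hspa14 (0.023) and Bag3 (0.016), none of them called, and lost the calls of Pfdn2 and Hspb8. The causes were not tested.

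With libraries left out, medians ranged from −0.16 to −0.13 for the chaperonin, −0.18 to −0.063 for prefoldin, −0.0079 to 0.23 for small heat shock proteins and −0.15 to −0.068 for HSF1-driven members. Uncalled members that turned direction there ranged from −0.15 to 0.051 (Hspa14), −0.13 to 0.014 (Dnajb4), −0.039 to 0.044 (Cct4), −0.019 to 0.044 (Trap1), −0.087 to 0.083 (Bag3), −0.066 to 0.061 (Pfdn5) and −0.12 to 0.052 (Dnajc7).

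The replicate numbers were not taken as pairs, since the correlations of the deviations of same-numbered libraries were 0.03, 0.02 and 0.16 for replicates 1, 2 and 3, and siAldoa replicate 1 correlated best with siCtrl replicate 2 (0.09). The 0.16 of replicate 3 was the highest correlation, and those of replicate 3 with the other numbers were −0.11 to −0.06. Part of the handling did go with the number, since the spike-in step of replicate 1 differed in both groups, and replicate 3 stood apart in both. With the replicate as a block 18 members were lower and 4 higher, against 1559 and 1611 of all genes, and only Vbp1 was lost. Depth limits the low members, such as Hspb1 at 0 to 2 reads.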
